A study of Mus musculus with 19 samples.

Results

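The genes described here are the collagen genes of the mouse ovary, taken as every gene whose annotated symbol reads Col, a number, the letter a and a number. On the arrays 42 such genes had a probe set assigned to a single gene, out of 18193 genes, and they were covered by 82 probe sets. Each gene was represented by its probe set with the highest mean log2 signal over all 19 arrays. A probe set is a group of short probes for the same transcript, and its signal is a brightness with no absolute scale, so levels of different genes are not compared. Genes whose mean log2 value lay below 6.26 (a signal of 69.4) were left out, after which 29 collagen genes were among the 12379 genes tested.

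RNA of whole ovaries of mice aged 2 months was hybridized to Affymetrix mouse arrays to ask what the loss of Dhh, of Ihh or of both does to the ovary. Dhh and Ihh encode the secreted ligands Desert hedgehog and Indian hedgehog. The 8 control arrays came from mice labelled Ihh_Dhh_dhet, a double heterozygote, so the controls were heterozygous for the genes studied. There were 4 arrays labelled Dhh_KO, 4 labelled Ihh_KO and 3 labelled Ihh_Dhh_dKO, the double knockout, written DKO. The labels describe all samples, controls included, as carrying a gene deletion specific to the ovary, and name neither the driver of the deletion nor the deleted exons. The labels do not say which arrays came from separate animals, so p-values measure the spread between these samples only.

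Control arrays 1 to 4 were set against DKO and control arrays 5 to 8 against the single knockouts, since the arrays formed these 2 sets: the BioC hybridization control gave a 3'/5' ratio of 0.987 to 1.06 in controls 1 to 4 and DKO, and 0.685 to 0.781 on all other arrays. The targeted genes checked the labels. The mean Dhh signal was 1058 ± 356 (SD, n = 4) in controls 1 to 4 and 7.45 ± 5.86 (n = 3) in DKO, and controls 5 to 8, at 621 to 1085, lay far above Dhh KO, at 5.14 to 25.4. Ihh gave signals of 12.5, 35.1 and 43.5 in Ihh KO 1 to 3 and of 36.3 to 52.7 in DKO, against 139 to 425 over all 8 controls. The array labelled Ihh KO 4 went against its label, with a Dhh signal of 2.96 and an Ihh signal of 108, so Ihh KO was also tested without it and the values that the results turn on are given both ways. Summed signals of the granulosa cell markers, 5 of 5 measured genes, were 16057 to 22676 over all arrays, and those of the 6 oocyte markers 3613 to 12810, so markers of the labelled organ were present on every array.

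Collagens are the triple helical proteins of the extracellular matrix. Fibrillar collagens (types I, II, III, V, XI, XXIV and XXVII) form fibrils, among them those of stroma and of cartilage. Type IV collagen forms the sheet-like network of basement membranes, which in the ovary surround the follicles and line blood vessels. Type VI forms beaded filaments close to cells, type VIII short-chain networks around vessels and under endothelium, and the FACIT collagens decorate fibrils. The chains are hydroxylated and folded in the endoplasmic reticulum, trimmed outside the cell and crosslinked by lysyl oxidases. In RNA of a whole organ, fewer cells of a type and less RNA per cell cannot be told apart.

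Few collagen genes passed the test between the genotypes. In DKO against controls 1 to 4, a single collagen gene of the 29 tested passed the test (limma with Benjamini-Hochberg adjustment over all genes, adjusted p under 0.05), while 3.02% of all genes did. It was Col8a1, a chain of type VIII collagen, which rose, as did 1.57% of all genes. At an unadjusted p under 0.05 by limma, 9 of the 29 collagens differed in DKO, beside 16.1% of all genes. In Dhh KO against controls 5 to 8, none of the 29 passed, as none of the 12379 genes did (0%). Even the fall of the Dhh signal itself gave no call, so this 0% does not show that other genes were unchanged. Without the array labelled Ihh KO 4, which enters the shared spread, it was 0 of 29, beside 1 gene (0.00808%). With all arrays, at an unadjusted p under 0.05 by limma, there were 2 collagens of 29 and 1252 genes (10.1%). In Ihh KO against controls 5 to 8, none of the 29 passed, against 2 genes of all tested (0.0162%). Without the array labelled Ihh KO 4 the count was again 0 of 29, against 48 genes (0.388%). By limma at an unadjusted p under 0.05, 4 collagens of 29 differed in Ihh KO, as did 1728 genes (14%), and without the array labelled Ihh KO 4 it was again 4 of 29, beside 16% of all genes. The 95% intervals were wide, with a median width of 1.05 on the log2 scale over the 29 collagens in DKO, so a gene that did not pass is not shown to be unchanged.

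The changes went in both directions in each comparison. The median log2 difference of the 29 collagens was 0.06 in DKO, 0.03 in Dhh KO and 0.09 in Ihh KO, beside medians over all tested genes of 0.02, -0.03 and -0.02. When each array was centred on its median, the Ihh KO medians became 0.24 for the collagens and 0.13 for all genes. In DKO 15 collagens lay above their controls and 14 below. The fibrillar group (8 of 11 tested) had a median of -0.06 in DKO, type IV (6 of 6 tested) 0.14 and the other types (15 of 25 tested) -0.03. In Dhh KO these medians were 0.12, 0.10 and 0.01, and in Ihh KO 0.07, 0.07 and 0.22. Without the array labelled Ihh KO 4 those of Ihh KO were 0.02, 0.13 and 0.26, with 0.06 over the 29 collagens and -0.03 over all genes. The signals of DKO and controls 1 to 4 did not overlap for 4 of the 29 collagens (13.8%), beside 13.2% of all genes, so the share was near the background. The corresponding counts were 2 of 29 in Dhh KO (6.9%, beside 5.46%) and 1 of 29 in Ihh KO (3.45%, beside 6.28%), or 3 of 29 without the array labelled Ihh KO 4 (Col6a3 higher, Col4a4 and Col22a1 lower; 10.3%, beside 12.7%).

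**Figure D1:**
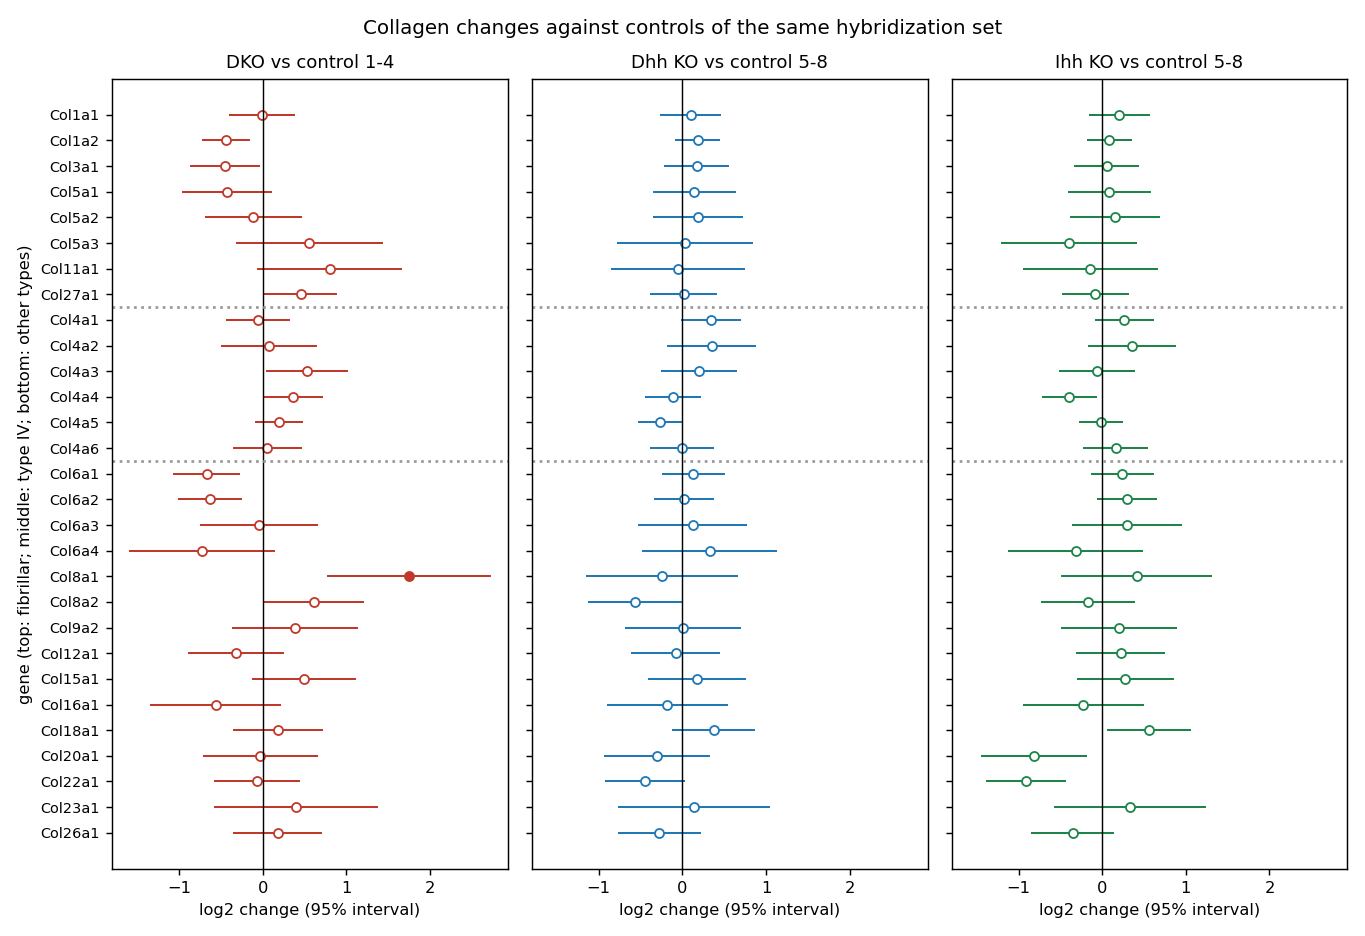
Log2 difference from the controls of the same array set, for each of the 29 tested collagen genes in DKO, Dhh KO and Ihh KO; points are estimates and bars their 95% intervals, and a filled point marks a gene that passed the test. Col8a1 in DKO, at 1.75, is the single filled point, and most intervals span 0.

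The promoters of 3 genes are shown as context for the genes with the smallest p-values in their class in DKO: Col8a1, which rose, and Col6a1 and Col1a2, which lay lowest by p in type VI and among the fibrillar chains without passing the test. Each sequence is the 250 bases before the annotated transcript start on the gene's own strand, from RefSeq sequences of assembly GRCm38.p6, 5' to 3'. Capitals mark a GC box (GGGCGG) or a CCAAT box on either strand.
Col8a1 (chr16:57754738-57754987, minus strand): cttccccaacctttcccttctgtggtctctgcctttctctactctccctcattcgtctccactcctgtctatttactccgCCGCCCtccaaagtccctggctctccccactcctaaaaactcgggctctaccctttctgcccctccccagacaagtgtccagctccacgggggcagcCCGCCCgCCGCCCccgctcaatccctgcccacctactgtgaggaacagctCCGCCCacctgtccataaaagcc
Col6a1 (chr10:76726045-76726294, minus strand): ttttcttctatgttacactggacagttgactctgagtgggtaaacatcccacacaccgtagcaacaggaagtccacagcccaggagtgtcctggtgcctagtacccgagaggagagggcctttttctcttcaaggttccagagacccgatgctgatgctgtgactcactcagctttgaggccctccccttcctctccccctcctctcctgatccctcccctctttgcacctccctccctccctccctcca
Col1a2 (chr6:4505368-4505617, plus strand): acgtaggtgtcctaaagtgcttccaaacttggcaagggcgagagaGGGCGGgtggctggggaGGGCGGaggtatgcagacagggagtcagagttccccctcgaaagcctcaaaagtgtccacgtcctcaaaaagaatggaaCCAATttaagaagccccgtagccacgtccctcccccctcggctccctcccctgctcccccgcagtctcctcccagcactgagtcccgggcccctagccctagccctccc
The Col8a1 stretch held 4 GC boxes, the Col1a2 stretch 2 GC boxes and 1 CCAAT box, and the Col6a1 stretch neither of these motifs. Over the 36 windows of 300 bases found for 33 of the 42 collagen genes, which run from 250 bases before to 50 after the start, GGGCGG was present in 61.1%, beside 35.7% of the 32851 windows of all genes. CCAAT was present in 36.1% beside 37.4%, and TATAAA in 13.9% beside 13.6%. The letters GACCACCCA, the core of sites for the GLI factors of Hedgehog signalling, were in 0 of the 36 windows and in 0.253% of all windows. All motifs were searched on both strands, none of them contains another, and a match is a description of letters only.

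Among the fibrillar chains, no member passed the test in any mutant group. Col1a1, the major chain of type I collagen, had signals of 4566, 5839, 4611 and 3555 in controls 1 to 4 and of 4809, 4889 and 4006 in DKO. The means were 4643 ± 935 (SD, n = 4) and 4568 ± 488 (n = 3), and the DKO arrays lay inside the range of the controls. This was a log2 difference of -0.01 (95% interval -0.39 to 0.38, adjusted p 0.99). Its sign turned under 5 of 32 alternative settings. In controls 5 to 8 Col1a1 was at 2735, 3616, 3119.8 and 2401, in Dhh KO at 2312, 3117, 3969.7 and 3434, and in Ihh KO at 3153, 4107, 2932 and 3454. All 3 groups overlapped, with differences of 0.10 (-0.25 to 0.46) in Dhh KO and 0.21 (-0.15 to 0.56) in Ihh KO, or 0.20 without the array labelled Ihh KO 4.

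Col1a2, the second chain of type I collagen, lay lower in DKO. Its signals were 8718, 9229, 8998 and 6868 in controls 1 to 4 and 7367, 6594 and 4951 in DKO. The DKO arrays were low apart from DKO 1, which lay above the lowest control. On the log2 scale they differed by -0.43 (95% interval -0.71 to -0.16, adjusted p 0.088), so it did not pass. In controls 5 to 8 Col1a2 was at 8182, 8936, 7579 and 7338, in Dhh KO at 8898, 8048, 9495 and 9961 and in Ihh KO at 8733, 8043, 7455 and 9885. The differences there were 0.18 (-0.07 to 0.44) in Dhh KO and 0.09 (-0.17 to 0.34) in Ihh KO, and the groups overlapped. The second was 0.01 without the array labelled Ihh KO 4 and turned to -0.025 under quantile normalization.

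Col3a1, the chain of type III collagen that mixes with type I in soft stroma, gave 7047, 9738, 8651 and 5486 in controls 1 to 4 and 6303, 5839 and 4582 in DKO. All 3 DKO arrays lay below the control mean, and the ranges overlapped through control 4. The log2 difference was -0.45 (-0.86 to -0.04, adjusted p 0.26). In controls 5 to 8 it was at 6094, 8982, 7773 and 6054, in Dhh KO at 7378, 7093, 9617 and 8211 and in Ihh KO at 6833, 7531, 5971 and 9703. These groups overlapped, with log2 differences of 0.17 (-0.21 to 0.55) and 0.05 (-0.33 to 0.43), the second being -0.08 without the array labelled Ihh KO 4.

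The minor fibrillar chains spread in both directions. Col5a1, which helps start fibrils, differed by -0.43 in DKO (adjusted p 0.43), and its DKO signals were 1292, 1514 and 606. Col27a1, a long fibrillar chain known from cartilage, was at 585, 609.5, 478 and 760.5 in controls 1 to 4 and at 825, 761 and 892 in DKO. Its lowest DKO signal stood just above its highest control, and the log2 difference of 0.45 did not pass (0.03 to 0.87, adjusted p 0.26). Col11a1, a chain of type XI, differed by 0.80 with a wide interval (-0.05 to 1.66, adjusted p 0.35), its controls spanning 396 to 1196. Over the 8 tested fibrillar chains the log2 differences ran from -0.45 to 0.80 in DKO, from -0.05 to 0.19 in Dhh KO and from -0.39 to 0.21 in Ihh KO, or -0.40 to 0.20 without the array labelled Ihh KO 4.

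**Figure D2:**
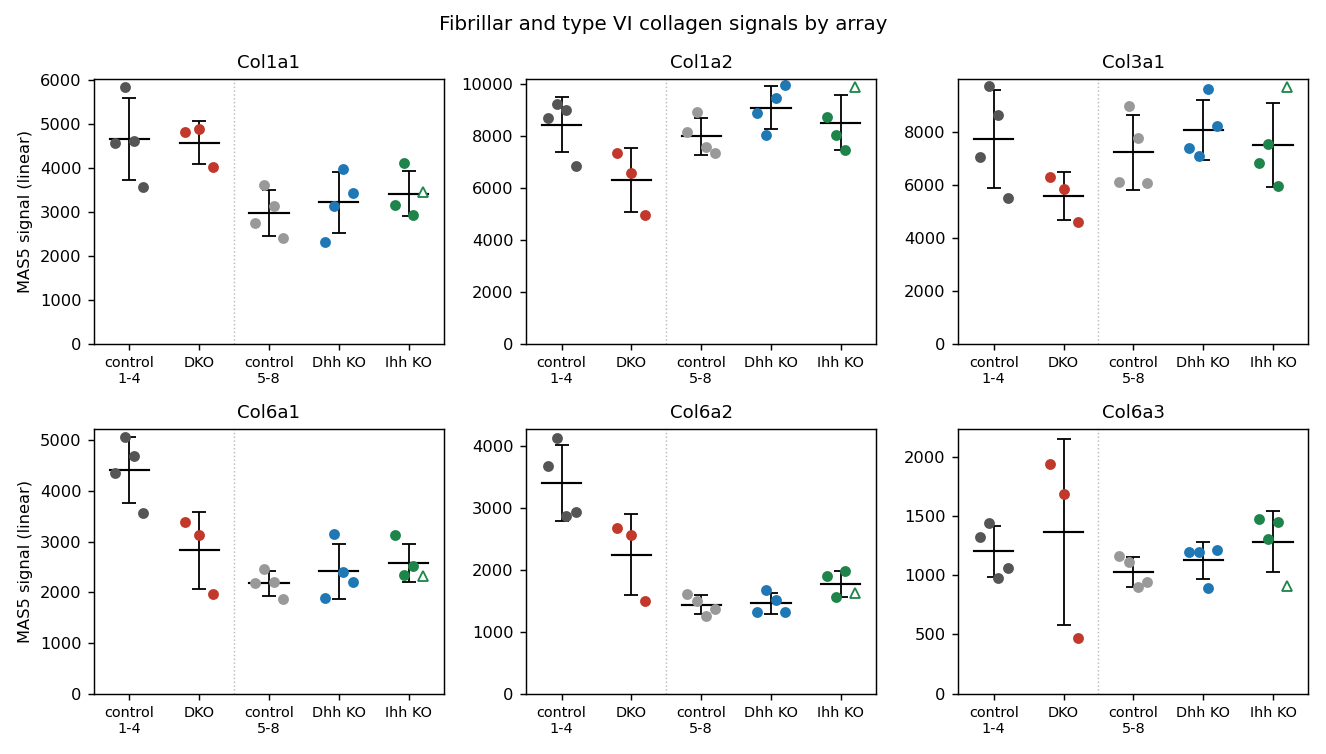
MAS5 signal (linear scale, from 0) of fibrillar and type VI collagen genes on each array, by group; dots are arrays, the line is the mean, bars are the SD, and the open triangle is the array labelled Ihh KO 4. Col6a1 and Col6a2 lie lower in DKO than in controls 1 to 4 without overlap.

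All 6 type IV genes were tested and none passed in a mutant group. Col4a1 and Col4a2 encode the chains of the common basement membrane network and lie head to head, with annotated starts 21 bases apart on opposite strands. Col4a1 signals were 4437, 6542, 6627 and 4286 in controls 1 to 4 and 5339.9, 5388 and 4725 in DKO, and those of Col4a2 were 2230.1, 4065, 3950.3 and 2473 against 3346, 3599 and 2815. For both genes the DKO arrays lay inside the control range, between a low pair (controls 1 and 4) and a high pair (controls 2 and 3). The log2 differences were -0.06 (-0.43 to 0.31, adjusted p 0.91) and 0.08 (-0.48 to 0.64, adjusted p 0.93), and the sign turned under 5 alternative settings for Col4a1 and 3 for Col4a2.

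In the single knockouts both genes lay above controls 5 to 8 without passing. Col4a1 was at 3990.3, 5448, 5366 and 4252 in controls 5 to 8, at 4913, 6588, 6582 and 6006 in Dhh KO and at 6424, 6224, 4221 and 6156 in Ihh KO. Col4a2 was at 1507, 2485, 2622 and 1792 in controls 5 to 8, at 1687, 2936, 3283 and 2867 in Dhh KO and at 3123, 3167, 1754 and 2734 in Ihh KO. The groups overlapped for both genes. The log2 differences were 0.34 (adjusted p 0.49) and 0.35 (adjusted p 0.66) in Dhh KO and 0.27 (adjusted p 0.48) and 0.36 (adjusted p 0.54) in Ihh KO, or 0.23 and 0.34 without the array labelled Ihh KO 4.

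The minor type IV chains Col4a3 to Col4a6 form specialised networks of some basement membranes. Col4a4 was at 584, 676, 766 and 774 in controls 1 to 4 and at 694, 961 and 1078 in DKO, and the groups overlapped through DKO 1. The log2 difference was 0.36 (0.02 to 0.71, adjusted p 0.28). In Ihh KO it was at 459, 526, 395 and 492, all under the 532, 624, 661 and 642 of controls 5 to 8. That difference, -0.39 (-0.71 to -0.07, adjusted p 0.27), did not pass either, and was -0.42 without the array labelled Ihh KO 4. Col4a3 differed by 0.53 in DKO (adjusted p 0.25) and by -0.06 in Ihh KO (adjusted p 0.92), or -0.15 without that array, its DKO signals of 165, 285 and 359 spanning more than the 138 to 204 of the controls. Col4a5 was at 2363, 2471, 2143 and 2273 in Dhh KO and at 2812, 2751, 2955 and 2592 in controls 5 to 8, without overlap, a log2 difference of -0.26 (-0.52 to -0.01, adjusted p 0.48).

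**Figure D3:**
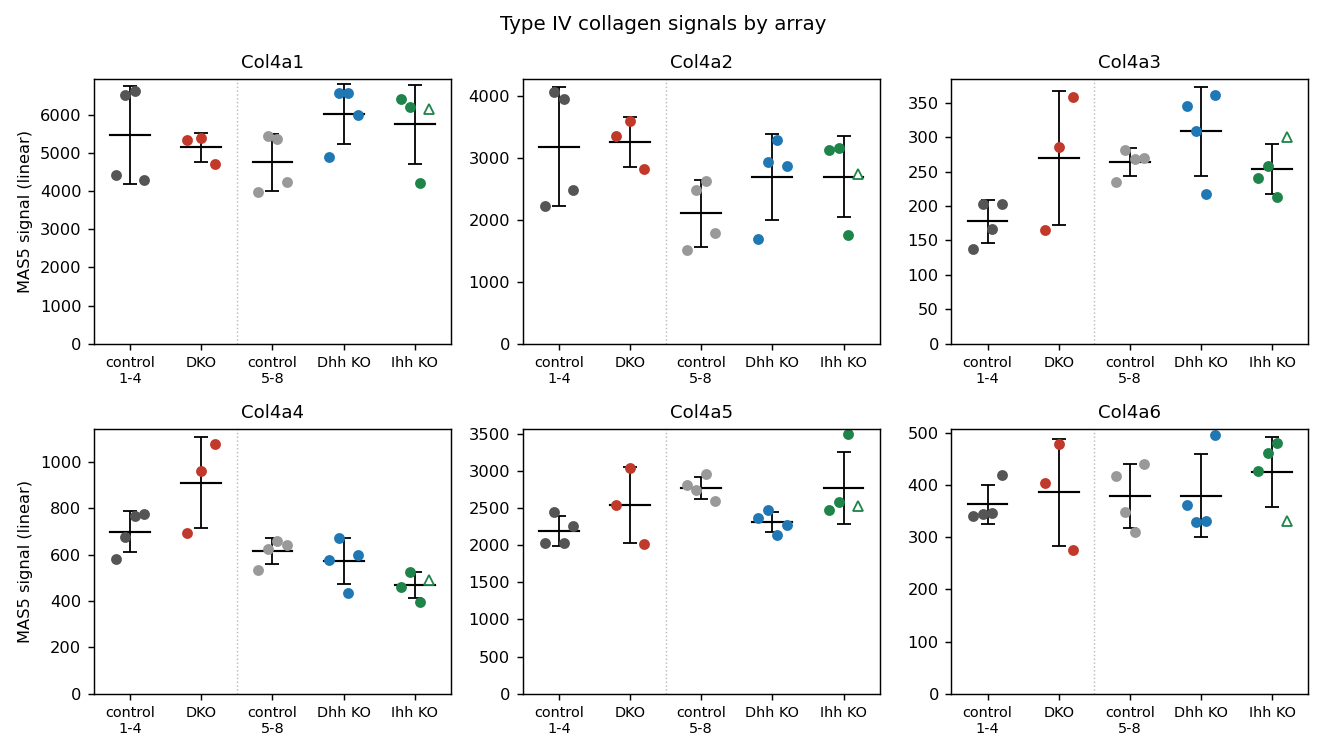
MAS5 signal (linear scale, from 0) of the 6 type IV collagen genes on each array, by group; dots are arrays, the line is the mean, bars are the SD, and the open triangle is the array labelled Ihh KO 4. Col4a4 in Ihh KO (395 to 526) lies under controls 5 to 8 (532 to 661), while the other groups mostly overlap with their controls.

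Type VI collagen had 4 tested members, all with negative differences in DKO and none past the threshold. Col6a1 was at 4351, 5063, 4681 and 3555 in controls 1 to 4 and at 3393, 3129 and 1958 in DKO. Every DKO array lay under every control, DKO 3 the lowest. The log2 difference was -0.67 (-1.06 to -0.28, adjusted p 0.061). Col6a2, the partner chain, was at 3671, 4131, 2876 and 2926 against 2679, 2565 and 1491, again without overlap. Its log2 difference was -0.63 (SE 0.18, adjusted p 0.064). Without DKO 3 the differences were smaller, at -0.42 for Col6a1 and -0.36 for Col6a2, as was that of Col1a2, at -0.27. When matched controls of the array sets were treated as sharing a source (correlation 0.654), the adjusted p of Col6a1 was 0.045.

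The difference between the control sets was larger for these genes than the DKO difference. In controls 5 to 8, the same genotype as controls 1 to 4, Col6a1 was at 2181, 2459, 2208 and 1857 and Col6a2 at 1610.3, 1504, 1252 and 1373, with means of 2177 ± 247 and 1435 ± 156 (SD, n = 4). The log2 difference between the control sets was -1.01 for Col6a1 (adjusted p 0.00033) and -1.23 for Col6a2 (adjusted p 3.7e-05). With the controls of both sets pooled, the DKO differences were -0.16 and -0.01. In the single knockouts, against the controls of their own set, Col6a1 differed by 0.13 in Dhh KO and 0.24 in Ihh KO and Col6a2 by 0.02 and 0.30, none past the threshold. Without the array labelled Ihh KO 4 the Ihh KO differences were 0.29 and 0.34.

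The other type VI chains rested on few arrays. Col6a3, a large chain of the same filament, was at 1940.2, 1686 and 467 in DKO against 973 to 1440.3 in controls 1 to 4, so that 2 DKO arrays lay above all controls and DKO 3 under them. Its difference was -0.04 (-0.73 to 0.66). In Ihh KO 1 to 3 it was at 1474, 1309 and 1447, above the 902 to 1166 of controls 5 to 8, while the array labelled Ihh KO 4, at 909, lay inside that range. The log2 difference was 0.46 without that array (-0.23 to 1.14, adjusted p 0.51) and 0.30 with it. Col6a4 gave 569, 488 and 115 in DKO against 416 to 740.2, a difference of -0.72 (-1.59 to 0.14, adjusted p 0.41). DKO 3 was also the lowest DKO array for Col5a1, for Col16a1 (261, beside 967 and 857) and for Col26a1 (208, beside 418 and 603).

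Type VIII collagen held the change that passed. Col8a1 was at 176, 518, 455 and 222 in controls 1 to 4 and at 892, 1284 and 1050.0 in DKO, a mean of 343 ± 169 (SD, n = 4) against 1075 ± 197 (n = 3). All 3 DKO arrays lay above all 4 controls, and the controls fell into a low and a high pair. The rise was 1.75 on the log2 scale (SE 0.46, 95% interval 0.79 to 2.72, adjusted p 0.046 by limma). Both further Col8a1 probe sets showed it without overlap: means were 92.5 ± 44.1 and 298 ± 30.8 for the first, and 64.8 ± 28 and 163 ± 14.5 for the second. The adjusted p lay close to the threshold and was 0.016 to 0.16 over 32 alternative settings, with the call lost in 18 of them and the difference between 1.49 and 1.99 in all.

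In the single knockouts Col8a1 did not pass. In controls 5 to 8 it was at 209.8, 519, 536 and 196, in Dhh KO at 186, 382, 324 and 251 and in Ihh KO at 383, 463, 929 and 222. The groups overlapped, and the signal of 929 belonged to Ihh KO 3. The log2 differences were -0.24 (-1.14 to 0.65) in Dhh KO and 0.41 (-0.48 to 1.30) in Ihh KO, or 0.73 (-0.16 to 1.63) without the array labelled Ihh KO 4. Col8a2, the second type VIII chain, was at 172, 256 and 296 in DKO against 181, 113, 126 and 202 in controls 1 to 4, a log2 difference of 0.61 (0.02 to 1.21, adjusted p 0.29), and it differed by -0.57 in Dhh KO (-1.12 to -0.02, adjusted p 0.48).

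**Figure D4:**
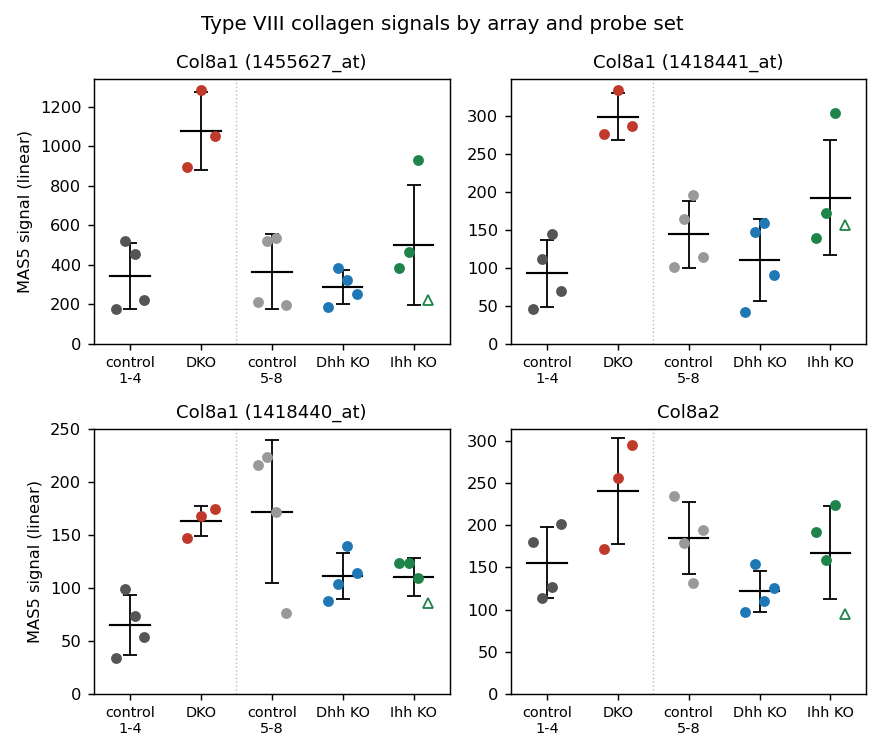
MAS5 signal (linear scale, from 0) of the 3 Col8a1 probe sets and of Col8a2 on each array, by group; dots are arrays, the line is the mean, bars are the SD, and the open triangle is the array labelled Ihh KO 4. The DKO arrays lie above controls 1 to 4 for each Col8a1 probe set, from 892 to 1284 against 176 to 518 for the brightest, and overlap with them for Col8a2.

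The remaining types gave no call in a mutant group. Among the FACIT collagens, Col22a1, known from tissue junctions, was at 47.4, 56.4, 70.4 and 75.5 in Ihh KO against 165, 123, 145 and 74.7 in controls 5 to 8. The Ihh KO arrays lay under the controls except for the array labelled Ihh KO 4, which just exceeded control 8. The log2 difference was -0.91 (-1.38 to -0.45, adjusted p 0.14), or -1.003 without that array (adjusted p 0.070). These signals lie near the lower limit of 69.4, and the scale of log2 of the signal plus 7.02 understates differences of dim genes. Col20a1 differed by -0.82 in Ihh KO (adjusted p 0.24), or -0.97 without that array, and by -0.03 in DKO. Col18a1, a basement membrane collagen whose end fragment is endostatin, differed by 0.56 in Ihh KO (0.08 to 1.04, adjusted p 0.30) and its relative Col15a1 by 0.28, or 0.59 and 0.32 without that array. Col26a1 was at 289, 297, 347 and 275 in Dhh KO against 365, 358, 350.2 and 389.9 in controls 5 to 8, without overlap, a difference of -0.28 (adjusted p 0.72).

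The 13 collagens under the limit were Col2a1, Col6a5, Col7a1, Col9a1, Col9a3, Col10a1, Col11a2, Col13a1, Col14a1, Col17a1, Col19a1, Col24a1 and Col25a1. They include the main cartilage chain (Col2a1), the growth plate chain (Col10a1) and the anchoring fibril chain of skin (Col7a1). Their signals ran from 0.955 to 207 over all arrays. The mean log2 values were 5.91 for Col25a1 and 6.13 for Col14a1, just outside the limit, and 6.29 for Col23a1 and 6.36 for Col5a3, just inside. No presence calls were used, so these genes are described only as dim.

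Whether a collagen changed more in DKO than in a single knockout was tested as a difference between the changes, each against its own controls. None of the 29 collagens passed for DKO minus Dhh KO (75 genes, 0.606% of all) or for DKO minus Ihh KO (49 genes, 0.396%). At an unadjusted p under 0.05 by limma, 8 and 6 of the 29 collagens differed, beside 1999 (16.1%) and 2151 (17.4%) of all genes. For Col8a1 the differences were 2.00 (0.68 to 3.31, adjusted p 0.13) against Dhh KO and 1.34 (0.03 to 2.66, adjusted p 0.28) against Ihh KO. For Col6a2 the difference against Ihh KO was -0.93 (-1.43 to -0.42, adjusted p 0.090), for Col6a1 -0.91 (adjusted p 0.11) and for Col4a4 0.75 (adjusted p 0.12). Col1a2 differed by -0.62 against Dhh KO (adjusted p 0.10) and by -0.52 against Ihh KO (adjusted p 0.16). Without the array labelled Ihh KO 4 the differences against Ihh KO were 1.02 for Col8a1, -0.96 for both Col6a1 and Col6a2, 0.78 for Col4a4 and -0.45 for Col1a2, none past the threshold. With matched controls treated as sharing a source, 4 collagens passed against Dhh KO (Col1a2, Col6a1, Col8a1 and Col8a2), beside 5.43% of all genes, and 4 against Ihh KO (Col1a2, Col4a4, Col6a1 and Col6a2), beside 5.63%.

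More collagens passed between the control sets than in any mutant comparison, though at a lower share than all genes. Between controls 5 to 8 and controls 1 to 4, the same genotype, 6 of the 29 collagens passed, beside 28.5% of all genes. Col20a1 (1.23), Col22a1 (0.85) and Col4a5 (0.34) were higher in controls 5 to 8, as were 12.3% of all genes, and Col6a2 (-1.23), Col6a1 (-1.01) and Col1a1 (-0.64) lower, as were 16.2%, all values in parentheses being log2 differences. These calls took the 8 control arrays as separate samples. With matched controls treated as sharing a source, 13 of the 29 collagens passed, beside 54.7% of all genes. Each mutant group is therefore tested against the controls of its own set, and signals or pooled values given across sets are descriptions.

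Of the genes that make, trim, break down or bind collagen, 3 passed in DKO and none in Dhh KO or Ihh KO. Lox, a lysyl oxidase that crosslinks collagen and elastin, rose from 257, 405, 361 and 278 in controls 1 to 4 to 693, 825 and 459 in DKO, by 0.98 on the log2 scale (SE 0.21, adjusted p 0.014). P4ha3, a catalytic subunit of prolyl hydroxylase, rose from 143, 230.5, 193 and 441 to 475, 667 and 644, by 1.33 (SE 0.30, adjusted p 0.020). Pcolce, an enhancer of the protease that trims fibrillar collagen, fell from 4799, 6818, 7464 and 4048 to 3113, 3422 and 2766, by 0.86 on the log2 scale (SE 0.21, adjusted p 0.032). For each of the 3 genes, named because they passed this comparison, the DKO arrays and the controls did not overlap, as for 13.2% of all genes. Over 32 alternative settings the call was lost in 3 for Lox, in 6 for P4ha3 and in 9 for Pcolce, with the direction kept in all. By list, 1 of 17 tested synthesis and folding genes passed, 2 of 8 processing and crosslinking genes, 0 of 8 breakdown genes and 0 of 6 receptor genes, beside 3.02% of all genes. The collagen receptor Ddr1 differed by 0.72 (adjusted p 0.060), and the chaperone Serpinh1, which folds procollagen, by 0.01 (adjusted p 0.98).

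Markers of several cell types moved with DKO, and their part in the collagen values was not tested. A marker said to fall or rise here passed the test in DKO, as 3.02% of all genes did. Of 7 smooth muscle markers, all 7 lay lower in DKO and 4 fell (Acta2, Actg2, Lmod1 and Myh11), and their summed signal was 5183 to 11916 in DKO against 14000 to 18618 in controls 1 to 4. Of 6 stromal fibroblast markers, Nr2f2 and Tcf21 fell, with sums of 13190 to 18885 against 18504 to 26171. Of 6 endothelial markers Emcn fell, with sums of 2128 to 3095 against 3164 to 4406, and of 4 tested theca markers Star and Cyp11a1 fell. Of 7 surface epithelium markers Krt8 and Krt18 rose, with sums of 6917 to 10161 against 4018 to 5728. Both tested mast cell markers rose, and the 4 measured ones summed to 363 to 3545 against 108 to 204. Oviduct markers summed to 206 to 7070 in DKO against 103 to 537, and Wfdc2 rose. The oviduct gene Ovgp1 was at 3730 and 4679 on DKO 1 and DKO 3 and at 53.6 on DKO 2. None of the 5 pericyte markers passed, and their sums were 2607 to 3385 in DKO against 3572 to 4933 in controls 1 to 4. The 2 measured adipocyte markers summed to 59.98 to 2778 in DKO against 50.8 to 486, and the tested one, Adipoq, differed by 1.84 (adjusted p 0.44).

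Gapdh probe sets gave a 3'/5' ratio, which depends on RNA length, of 1.75 ± 0.051 (SD, n = 4) in controls 1 to 4 and 1.72 ± 0.056 (n = 3) in DKO. It was 1.94 ± 0.053 in controls 5 to 8, 2.52 ± 0.31 in Dhh KO and 2.07 ± 0.21 in Ihh KO (n = 4 each). Dhh KO, at 2.08 to 2.79, stood above the 1.89 to 2.01 of its controls. So did Ihh KO 3, at 2.37, and the array labelled Ihh KO 4, at 2.11. The part of this ratio in the collagen values was not tested. Of the 18 collagens with more than 1 probe set above the limit, the probe sets of a gene shared a direction for 16 in DKO (all but Col5a2 and Col12a1), for 12 in Dhh KO and for 11 in Ihh KO.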

How the data were processed

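RNA of 19 samples was amplified from 50 ng of total RNA and hybridized to 1 array each, per the labels' protocols. The deposited table gives 1 intensity per probe set and array, which the submitters' processing notes name as a MAS5 signal without a version. The mean after trimming 2% at each end was 500 on every array, so the authors' values were scaled arrays, and no second normalization was applied. The number of arrays limits the precision.

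The collagen genes and the lists of related genes and cell type markers were chosen with earlier results of these data known. Signals were analysed as log2(signal + 7.02), the 10th percentile, and probe sets under the 40th percentile of mean log2 signal were left out. The fit used limma 3.58.1 in R 4.3.3 (lmFit, eBayes with an intensity trend) over all 19 arrays with 5 means, controls of each array set apart, two-sided, with Benjamini-Hochberg adjustment over 12379 genes and a threshold of 0.05. The array sets come from the values of the BioC control, not from the labels. Symbols came from the probe annotation, and 42 of 42 matched RefSeq by Entrez identifier.

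Named with all signals were collagens passing in a mutant comparison and Col1a1, Col1a2, Col3a1, Col4a1 and Col4a2. From the pathway lists, at most 4 passing genes with the smallest p were named. Genes named beyond this rule were chosen after their values were seen. Whether replicate numbers pair DKO with controls 1 to 4 is not settled. The correlations of same-numbered deviations across genes were 0.158, 0.274 and 0.0743 for DKO 1 to 3. With the other controls they were at most 0.054 for DKO 1 and -0.049 for DKO 2, but 0.213 for DKO 3 with control 4. Controls 1 to 4 resembled controls 5 to 8 in order (correlations across genes 0.537 to 0.771). The other pairs of controls across the sets gave -0.635 to 0.162. The scripts were tested on simulated data. Alternatives changed the scaling, pseudocount, filter, probe set, array weights, moderation, samples in the fit, dependence of controls and threshold, and left out each array. Figures used Python 3.11.15 and matplotlib 3.10.9.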

Additional observations from a re-analysis of the deposited data

Results flagged for a closer look

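In 116 groups of 4 arrays (29 collagens in 4 groups), 7 held an array far from the other 3, where chance gives about 1 in 20. Control 8 was high for Col11a1 (1753, next 801) and low for Col16a1 (468, next 696). Control 4 was high for Col4a6 (420.1, next 347). Ihh KO 3 was low for Col4a1 (4221, next 6156) and high for Col4a5 (3495, next 2586). Dhh KO 1 was low for Col12a1 (158, next 248) and Dhh KO 3 low for Col6a3 (895, next 1192).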

How the results depend on the processing

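Percentages here are the share of all genes passing in the same setting. The count of collagens passing in DKO, 1 (3.02%), became 0 with quantile normalization (2.31%), with no filter (2.07%), with a filter at the 60th percentile (2.58%), without an intensity trend (2.89%) and with only the arrays of the set (0.638%). It became 2 with matched controls as a random block (3.28%). Replicate numbers as a block, a pairing that is not settled, gave 3, all lower (Col1a2, Col6a1 and Col6a2, 3.89%). Leaving out 1 array gave 0 to 4 (1.03% to 4.06%). It was 0 without control 1, control 3, Dhh KO 1, 3 or 4, Ihh KO 1 or 2, or DKO 2 or 3. Without Dhh KO 2 it was 1 (2.73%), but that gene was lower, so Col8a1 did not pass there. Without control 4 it was 3 (Col1a2, Col6a1 and Col6a2), and without DKO 1 it was 4 (the same 3 and Col4a3). Leaving out an array of another group changes only the shared spread and adjustment.

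The Dhh KO count was 0 in every setting run. The Ihh KO count was 1 (Col22a1, lower) with array weights (0.533%), and 0 to 1 on leaving out 1 array, 1 without control 8 (0.469%). For DKO minus Dhh KO it was 2 with array weights (3.28%), 5 with pooled controls (26%), 4 with matched controls (5.43%) and 0 to 1 on leaving out 1 array (1 without control 4, 2.46%). For DKO minus Ihh KO it was 3 with pooled controls (20.7%) and 4 with matched controls (5.63%). On leaving out 1 array it was 0 to 2 (2 without control 4, 2.21%, or DKO 1, 1.1%). Pooled controls cancel from both differences, so that setting compared DKO with a single knockout directly, across the array sets. Between control sets, 6 (28.5%) became 14 with median centring (35.6%), 10 with no filter (28.1%), 11 with probe sets one by one (29.1% of probe sets), 13 with matched controls (54.7%) and 3 at 2-fold or more (2.92%), and 5 to 7 on leaving out 1 array (23.1% to 29.8%). Median centring moved the median of all genes by -0.34 between the control sets and to 0.13 in Ihh KO.

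Values that changed sign had not passed the test. In DKO, Col1a1 was 0.079 with quantile normalization, 0.025 with array weights, 0.31 with pooled controls and -0.13 to 0.11 on leaving out 1 array. Col4a1 was 0.029 with quantile normalization, 0.032 with pooled controls and -0.17 to 0.043 on leaving out 1 array. Col4a2 was -0.026 with the replicate block and -0.076 to 0.21 on leaving out 1 array. In Dhh KO, Col1a1 was -0.014 with array weights and -0.22 with pooled controls, and -0.0098 to 0.25 on leaving out 1 array. In Ihh KO, Col1a1 was -0.11 with pooled controls, Col1a2 -0.025 with quantile normalization and -0.069 with the mean of its probe sets, and Col3a1 -0.061 with quantile normalization, -0.012 with array weights and -0.078 to 0.16 on leaving out 1 array. With pooled controls the control mean cancels from a difference between changes, so DKO was compared directly with each single knockout across the array sets. The differences against Dhh KO were then 0.21 for Col6a1 and 0.58 for Col6a2. Those against Ihh KO were 0.10 for Col6a1, 0.30 for Col6a2 and -0.0011 for Col22a1. These values include the difference between the array sets. The cause of the other sign changes was not tested. No paired fit was run for the single knockouts, whose replicate numbers are not those of controls 5 to 8.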

Other observations

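The controls of the array sets repeated each other's order for several collagens. Col8a1 was low in controls 1 and 4 (176 and 222) and in controls 5 and 8 (209.8 and 196), and high in controls 2 and 3 (518 and 455) and in controls 6 and 7 (519 and 536). Col11a1 was highest in control 4 (1196) and in control 8 (1753). Col4a1 and Col4a2 were low in controls 1, 4, 5 and 8. The labels do not say whether these arrays share RNA.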
